A study of Mus musculus with 84 samples.

Results

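The genes described here are 10 chaperones and folding enzymes of the endoplasmic reticulum (ER), taken by name from the 48794 genes listed in the tables. They are Hspa5, Hsp90b1, Hyou1, Dnajb9, Sdf2l1, Pdia4, Pdia6, Creld2, Calr and Manf, and they were chosen with earlier results of these data known. All 10 passed the filter on low values in liver (15964 genes tested) and in epididymal white adipose tissue (eWAT; 18536 genes tested). With daily dosing of BI 456906 at 20 nmol/kg, 6 of the 10 transcripts rose in liver, as did 23% of all genes tested. In eWAT, 9 of the 10 fell at 30 nmol/kg, against 13% of all genes, and 3 of the 10 when 2 vehicle libraries rich in plasma cell transcripts were left out, against 10.9% of all genes in that fit. The change at 30 nmol/kg was more positive in liver than in eWAT for 5 of the 10, against 20.6% of all genes.

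The mice were male C57BL/6J made obese by a diet with 60% of its energy from fat, which every group, vehicle included, ate throughout. They were housed singly, were 22 weeks old at the start and were injected subcutaneously once a day for 30 days. BI 456906 is an acylated peptide that activates both the glucagon receptor and the glucagon-like peptide-1 (GLP-1) receptor, and semaglutide is an acylated peptide that activates the GLP-1 receptor alone. Each mouse received 1 of 7 treatments. These were vehicle, BI 456906 (doses of 3, 10, 20 and 30 nmol/kg) and semaglutide (doses of 20 and 100 nmol/kg). Of the 11 mice in each group of the study, 6 per group were sequenced in liver and 6 in eWAT, which gave 84 libraries. The labels do not tie a liver to the fat of the same mouse.

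Secreted and membrane proteins enter the ER unfolded, and the chaperones of its lumen bind them, help them fold or pass them on for degradation. When unfolded proteins accumulate, the sensors IRE1 (Ern1), PERK (Eif2ak3) and ATF6 start the unfolded protein response, and ATF6 and XBP1, the factor that IRE1 activates by splicing, raise transcription of chaperone genes. In the liver, which exports most plasma proteins, and in adipocytes, which secrete hormones and collagens, this system is active without any added stress.

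A known control element of chaperone promoters is the ER stress response element, which reads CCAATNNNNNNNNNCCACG and is bound by ATF6 together with the factor NF-Y. It was searched on both strands of the 250 bases before the start of transcription given by RefSeq (GRCm38.p6). Entries existed for 8 of the 10 genes, all but Manf and Hyou1. The full element stood in 5 of the 8, and in 37 of all 32851 promoters in the table (0.113%). Hsp90b1 held it 2 times, while Dnajb9, Sdf2l1 and Pdia4 held no full match in this window. For Dnajb9 all 250 bases of the window lie inside the gene as GENCODE draws it. The bases before that start were therefore not searched. The related element ATTGGNCCACG stood in 10 promoters (0.0304%), the cAMP response element TGACGTCA, a site for the CREB factors that glucagon signalling activates, in 508 (1.55%), and the core TGACGTGG, a site for XBP1 and ATF6, in 185 (0.563%). None of the 8 windows held any of these 3 motifs. A match of letters does not show that a factor was bound. The stretches that hold the element are shown so that its place and orientation can be read, in lower case and along the strand of the gene, with the letters at both ends of each element (CCAAT and CCACG, or CGTGG and ATTGG where it lies on the opposite strand) in capitals. Each stretch ends at the last base before the gene as GENCODE draws it, and for Hspa5, where the element lies 65 to 47 bases before the RefSeq start and inside the gene as GENCODE draws it, the element alone is given.
Hspa5 (plus strand): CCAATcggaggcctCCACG
Hsp90b1 (chr10:86705510-86705694, minus strand): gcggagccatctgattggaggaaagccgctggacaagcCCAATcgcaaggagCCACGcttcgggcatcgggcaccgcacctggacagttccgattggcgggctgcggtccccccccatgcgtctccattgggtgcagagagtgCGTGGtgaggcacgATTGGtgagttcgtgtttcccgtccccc
Pdia6 (chr12:17266339-17266544, plus strand): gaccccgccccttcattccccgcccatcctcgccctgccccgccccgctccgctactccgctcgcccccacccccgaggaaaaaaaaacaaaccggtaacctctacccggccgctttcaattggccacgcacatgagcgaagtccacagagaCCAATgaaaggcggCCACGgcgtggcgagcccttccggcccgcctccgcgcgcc
Creld2 (chr15:88819396-88819645, plus strand): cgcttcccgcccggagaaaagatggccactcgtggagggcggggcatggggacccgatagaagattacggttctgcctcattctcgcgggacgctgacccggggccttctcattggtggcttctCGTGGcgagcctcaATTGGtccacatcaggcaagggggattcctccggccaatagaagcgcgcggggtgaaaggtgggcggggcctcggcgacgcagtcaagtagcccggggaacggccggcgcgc
Calr (chr8:84846935-84847181, minus strand): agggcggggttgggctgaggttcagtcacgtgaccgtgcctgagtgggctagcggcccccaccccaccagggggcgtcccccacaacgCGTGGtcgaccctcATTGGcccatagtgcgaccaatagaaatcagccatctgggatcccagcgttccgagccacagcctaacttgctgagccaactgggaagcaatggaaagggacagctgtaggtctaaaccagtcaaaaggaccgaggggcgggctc

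**Figure D1:**
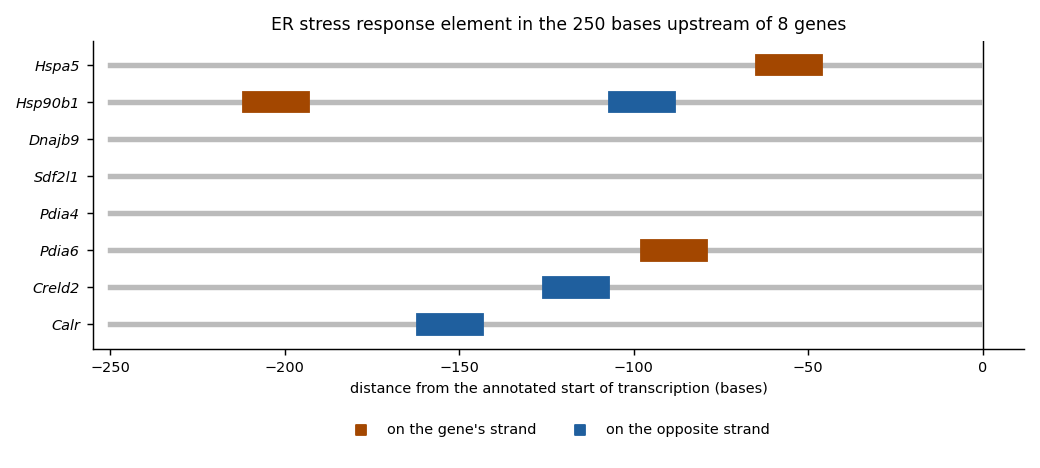
Position of the ER stress response element before the annotated start of 8 chaperone genes, in bases along the gene's strand. Orange blocks lie on the gene's strand and blue blocks on the opposite strand. Hspa5 carries it closest to the start, and Dnajb9, Sdf2l1 and Pdia4 carry no full match in the window searched. The window of Dnajb9 lies wholly inside the gene as GENCODE draws it.

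In vehicle mice the 10 transcripts covered a wide range of levels, given in TPM (transcripts scaled to a fixed total, a unit that compares genes per length) as mean ± SD of 6 mice. Calr, the lectin chaperone that holds newly glycosylated proteins, stood at 292 ± 41.9 TPM in liver and Hspa5, which encodes BiP, the HSP70 of the lumen, at 269 ± 48.2 TPM. Hsp90b1, the HSP90 of the lumen, followed at 225 ± 26.6 TPM. Sdf2l1, a partner of BiP co-chaperones, was lowest at 14.7 ± 5.11 TPM. In eWAT the mean was higher for each of the 10 genes, by a ratio between 1.27 for Pdia4 and 7.94 for Sdf2l1, with Hspa5 at 703 ± 139 TPM and Calr at 684 ± 102 TPM. The tables of both tissues were normalized separately, so these ratios are a description. The coefficient of variation among vehicle mice had a median over the genes of 15.3% in liver (11.8 to 34.7%) and of 17.2% in eWAT (8.13 to 28.6%).

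Libraries held 21676902 to 53869104 reads on genes in liver and 37573004 to 53996914 in eWAT. The least covered of the 10 genes, Sdf2l1 in liver, still had 196 to 1104 reads per library, so the spread between mice and not counting error limits the comparisons. The hepatocyte markers (Alb, Apoa1, Ttr, Serpina1c, Apoc3 and Fgb) summed to 73053 to 87487 TPM in vehicle liver, and the adipocyte markers (Adipoq, Plin1, Cidec, Lep, Cfd and Fabp4) to 17888 to 34832 TPM in vehicle eWAT. Vehicle eWAT also held hepatocyte transcripts, between 22.2 and 6356 TPM in sum. In 2 of its libraries, vehicle replicates 1 and 3, the plasma cell markers (Jchain, Mzb1, Derl3, Tnfrsf17, Iglv1 and Pou2af1) summed to 779 and 9932 TPM, against 5.72 to 111 TPM in the other 4. Epididymis markers summed to no more than 0.45 TPM in vehicle eWAT. The tests of the 10 genes and of the other pathway genes against vehicle in eWAT are given with and without replicates 1 and 3. Without them the ratios of eWAT to liver lay between 1.20 for Pdia4 and 7.42 for Sdf2l1, with Hspa5 at 677 ± 167 TPM and Calr at 664 ± 125 TPM in vehicle eWAT (SD, n = 4).

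In liver, the chaperone transcripts were highest at 20 nmol/kg of BI 456906. Against vehicle, 6 of the 10 rose at a false discovery rate (FDR, Benjamini-Hochberg over all genes tested) of at most 0.05 in limma/voom: Hspa5, Hsp90b1, Hyou1, Dnajb9, Creld2 and Manf. In the same comparison 23% of the 15964 genes tested rose. The median log2 fold change was 0.47 over the 10 genes and -0.02 over all genes. At 30 nmol/kg, 4 of the 10 rose (Hsp90b1, Hyou1, Dnajb9 and Creld2; 28.9% of all genes rose) and 2 fell (Pdia4 and Pdia6; 29.9% of all genes fell), and the median log2 fold change was 0.17 over the 10 genes and -0.03 over all genes. Because these are bulk tissue samples, fewer cells of a type and less RNA per cell cannot be told apart. All comparisons with vehicle share the same 6 vehicle libraries. By the study's stricter criteria, which also ask for a log2 fold change of at least 1 in size, 0 of the 10 were called at either dose in limma/voom, against 6.69% of all genes at 20 nmol/kg and 12.9% at 30 nmol/kg. By FDR alone edgeR and DESeq2 passed 6 of the 10 at each dose, beside 45.9% and 46.6% of all genes at 20 nmol/kg and 59.01% and 59.5% at 30 nmol/kg, and an unadjusted p under 0.05 was found for 7 of the 10 at 20 nmol/kg and 6 at 30 nmol/kg.

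Among the HSP70 and HSP90 chaperones, all 3 genes rose at 20 nmol/kg. Hspa5 (ENSMUSG00000026864, chromosome 2:34771970-34777547 of GRCm38, the build of all coordinates here), whose product also keeps the stress sensors inactive, lay between 193 and 330 TPM in vehicle mice (median 269), between 340 and 543 TPM at 20 nmol/kg (median 453) and between 300.03 and 402 TPM at 30 nmol/kg (median 349). Every mouse at 20 nmol/kg stood above every vehicle mouse, whereas at 30 nmol/kg the groups overlapped. The log2 fold change was 0.60 ± 0.15 (SE, n = 6 per group) with an FDR of 0.00133 (limma/voom) at 20 nmol/kg and 0.29 ± 0.15 with an FDR of 0.101 at 30 nmol/kg. Hsp90b1 (chromosome 10:86690209-86705509), which folds a restricted set of clients such as integrins, ranged from 180 to 251 TPM in vehicle (median 226), from 291 to 401 TPM at 20 nmol/kg (median 337) and from 262 to 298 TPM at 30 nmol/kg (median 284). Both dose groups lay wholly above vehicle. Its log2 fold changes were 0.50 ± 0.11 (FDR 0.000258) and 0.28 ± 0.11 (FDR 0.0256; limma/voom); without vehicle replicate 46 or 48 the latter missed the threshold, with an FDR of up to 0.0586, as it did with library size alone (FDR 0.0549). Hyou1 (chromosome 9:44379490-44392369), a large HSP70 relative that exchanges the nucleotide of BiP, lay between 19.7 and 38.7 TPM in vehicle (median 32.5), between 47.9 and 75.03 TPM at 20 nmol/kg (median 61.96) and between 40.7 and 60.9 TPM at 30 nmol/kg (median 49.8). It was among the most changed of the 10 genes, with log2 fold changes of 0.84 ± 0.18 (FDR 0.000227) and 0.58 ± 0.18 (FDR 0.00621; limma/voom), and again no mouse at either dose overlapped vehicle.

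Of the BiP co-chaperones, Dnajb9 rose and Sdf2l1 did not pass the test. Dnajb9 (chromosome 12:44205559-44210326), a DNAJ protein that brings BiP to IRE1, had 25.96 to 35.4 TPM in vehicle (median 33.3), 38.5 to 47.2 TPM at 20 nmol/kg (median 42.4) and 39.4 to 45.99 TPM at 30 nmol/kg (median 43.005). Both dose groups lay above vehicle, whereas the 6 mice at 10 nmol/kg, with 31.2 to 34.9 TPM, lay within its range. Its log2 fold change was 0.32 ± 0.09 (FDR 0.00435) at 20 nmol/kg and 0.35 ± 0.09 (FDR 0.00138; limma/voom) at 30 nmol/kg. Sdf2l1 (chromosome 16:17130138-17132383) varied more between mice than any other of the 10 genes in vehicle liver, and its log2 fold change of 0.55 ± 0.26 at 20 nmol/kg had an FDR of 0.0791 (limma/voom).

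The disulfide isomerases divided. Creld2 (chromosome 15:88819646-88826683), a small protein with isomerase activity that is released under ER stress, had 19.7 to 30.6 TPM in vehicle (median 26.02), 35.5 to 65.9 TPM at 20 nmol/kg (median 52.5) and 30.3 to 47.7 TPM at 30 nmol/kg (median 40.4). The ranges of vehicle and 20 nmol/kg did not overlap, and the log2 fold changes were 0.85 ± 0.20 (FDR 0.000735) and 0.57 ± 0.20 (FDR 0.0146; limma/voom). Pdia4 (chromosome 6:47796141-47813430), an isomerase with several thioredoxin-like domains, had 69.6 to 104 TPM in vehicle (median 93.9), 85.4 to 155 TPM at 20 nmol/kg (median 119) and 64.8 to 80.7 TPM at 30 nmol/kg (median 75.4). It overlapped vehicle at both doses, with log2 fold changes of 0.24 ± 0.14 (FDR 0.172) and -0.38 ± 0.14 (FDR 0.0195; limma/voom). Pdia6 (chromosome 12:17266545-17284770), which also dampens IRE1 and PERK signalling, had 67.9 to 101 TPM in vehicle (median 88.5) and 63.7 to 84.7 TPM at 30 nmol/kg (median 68.7). Its log2 fold change was -0.39 ± 0.14 at 30 nmol/kg (FDR 0.015) and -0.34 ± 0.14 at 10 nmol/kg (FDR 0.0465; limma/voom), where it was the only one of the 10 genes to pass against 18.1% of all genes that fell. The falls of Pdia4 and Pdia6 at 30 nmol/kg missed the threshold when log2 TPM was tested in place of the read-based values (highest FDR 0.075 and 0.0763), Pdia4 missed it also without vehicle replicate 47, and the fall of Pdia6 at 10 nmol/kg missed it without any 1 of 9 of the 12 libraries (all but vehicle replicates 46 and 48 and replicate 57 of the dose group).

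Calr (chromosome 8:84841850-84846934) did not pass in liver at any dose of BI 456906, with log2 fold changes between -0.30 (10 nmol/kg, FDR 0.0619) and 0.04 (20 nmol/kg, FDR 0.838; limma/voom). Manf (chromosome 9:106838312-106891979), a protein that stabilises complexes of BiP and is secreted under ER stress, had 79.7 to 128 TPM in vehicle (median 99.4) and 104 to 186 TPM at 20 nmol/kg (median 149). It rose at that dose by a log2 fold change of 0.45 ± 0.18 (FDR 0.0374; limma/voom), which was lost without vehicle replicate 44, 46 or 48 or without replicate 61, 62, 63 or 65 of the dose group (FDR up to 0.0983) and also without the filter on low values and with sample quality weights (FDR up to 0.107), and at 30 nmol/kg it was 0.07 ± 0.18 (FDR 0.755). In total the 6 mice lay wholly above vehicle for 5 of the 10 genes at 20 nmol/kg (14.1% of all genes) and for 3 at 30 nmol/kg (18.6% of all genes).

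**Figure D2:**
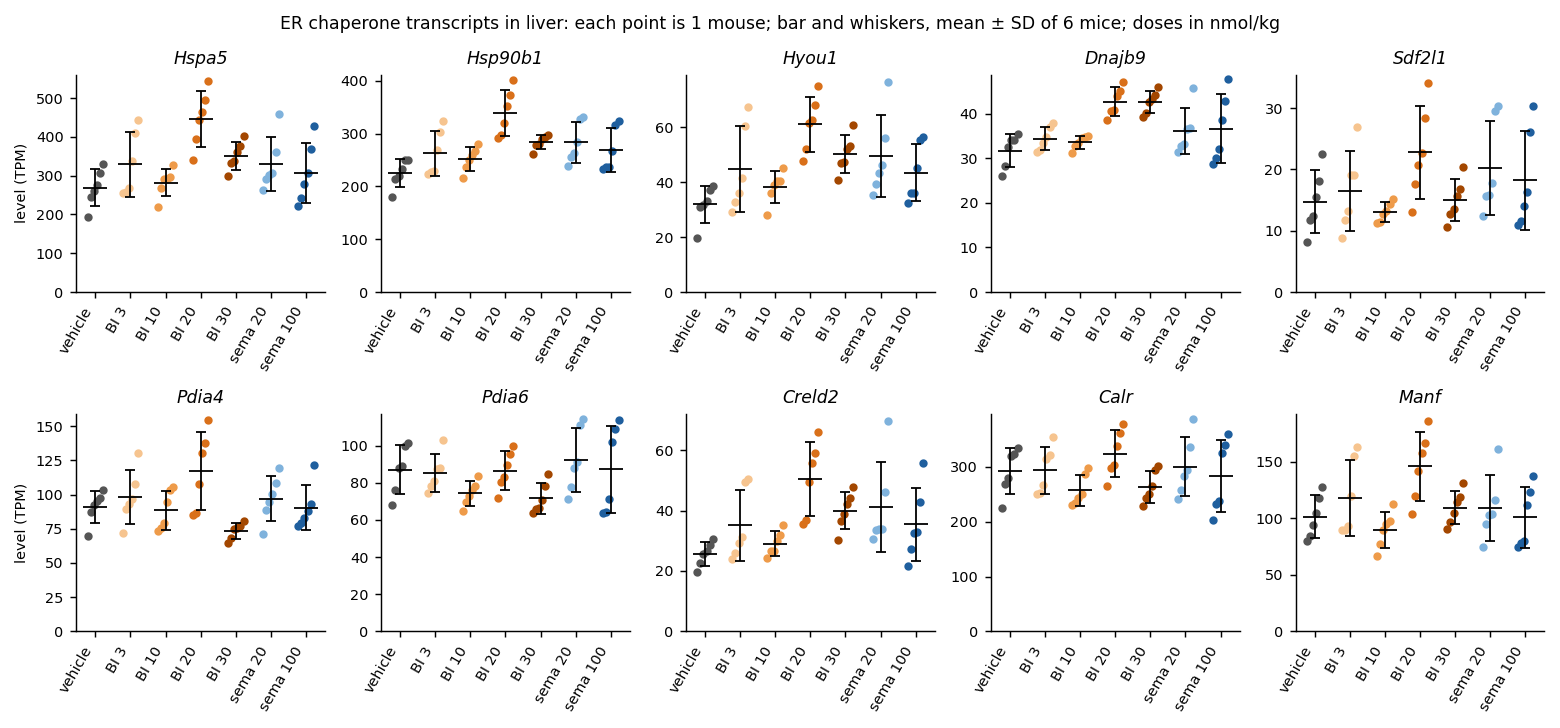
Level of each ER chaperone transcript in liver, in TPM on a linear axis from 0. Each point is 1 mouse, drawn from lowest to highest within its group, and bars with whiskers give the mean ± SD of 6 mice for vehicle, BI 456906 (BI) and semaglutide (sema) at the doses in nmol/kg. For Hspa5, Hsp90b1, Hyou1, Dnajb9 and Creld2 all 6 mice at BI 456906 20 nmol/kg stand above all 6 vehicle mice.

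Cell type markers moved in liver at the same doses and in other treated groups. The 6 hepatocyte markers summed to 73053 to 87487 TPM in vehicle, 87574 to 101604 TPM at 20 nmol/kg and 92174 to 105991 TPM at 30 nmol/kg of BI 456906, with 2 of the 6 higher and 1 lower at 20 nmol/kg and 4 higher and 1 lower at 30 nmol/kg (limma/voom). Of the 6 stellate cell and fibroblast markers, 4 fell at 20 nmol/kg and 5 at 30 nmol/kg, and 1 rose at each. The 6 macrophage markers included 3 that fell at each of these doses. With BI 456906 at 10 nmol/kg, 4 stellate cell and fibroblast markers and 1 macrophage marker fell. At both semaglutide doses 5 of the 6 stellate cell and fibroblast markers fell and 1 rose, and 3 of the 6 macrophage markers fell. Of the 6 hepatocyte markers 4 rose and 1 fell with semaglutide at 100 nmol/kg, and 2 rose and 1 fell at 20 nmol/kg. The plasma cell markers summed to no more than 6.60 TPM in vehicle liver and 6.26 TPM at 20 nmol/kg. The part of these shifts in the chaperone changes was not tested.

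At the lower doses and with semaglutide fewer of the 10 genes moved in liver. At 3 nmol/kg of BI 456906, 0 of the 10 passed in limma/voom, edgeR or DESeq2 (1 had an unadjusted p under 0.05), while 13.4% of all genes passed. Semaglutide at 20 nmol/kg raised 2 of the 10, Hyou1 by a log2 fold change of 0.52 ± 0.18 (FDR 0.0173) and Creld2 by 0.52 ± 0.20 (FDR 0.0329; limma/voom), against 23% of all genes that rose. The mice of this group overlapped vehicle for each gene, and 1 mouse, replicate 74, was the highest for 7 of the 10. Both calls were lost without it or without vehicle replicate 48, and that of Creld2 also without vehicle replicate 46 or semaglutide replicate 73. With semaglutide at 100 nmol/kg, 0 of the 10 passed in limma/voom, edgeR or DESeq2 and 0 had an unadjusted p under 0.05, although 48.2% of all genes passed. The log2 fold changes lay between -0.13 for Calr and 0.36 for Hyou1 (95% confidence interval -0.01 to 0.72), so a rise of the size seen for Hyou1 with semaglutide at 20 nmol/kg lies within the interval.

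When the compounds were compared with each other in liver, the chaperone differences did not pass the test. The single dose given of both was 20 nmol/kg. There 0 of the 10 genes passed in limma/voom, edgeR or DESeq2 and 4 had an unadjusted p under 0.05, beside 2.42% of all genes that passed. Hspa5 was higher with BI 456906 by a log2 fold change of 0.42 (95% confidence interval 0.10 to 0.73, FDR 0.16), Manf by 0.44 (0.08 to 0.80, FDR 0.211), Hsp90b1 by 0.26 (0.04 to 0.48, FDR 0.24) and Dnajb9 by 0.24 (0.05 to 0.42, FDR 0.194; limma/voom). These intervals hold differences from close to none to the size of the change against vehicle or, for Hspa5, Manf and Dnajb9, larger ones. At the highest doses, which differ (BI 456906 30 nmol/kg and semaglutide 100 nmol/kg), 0 of the 10 passed by any of the 3 tools and 2 had an unadjusted p under 0.05, beside 9.75% of all genes. Dnajb9 was higher with BI 456906 by 0.23 (0.05 to 0.42, FDR 0.103) and Pdia4 lower, with a log2 fold change of -0.29 (-0.57 to -0.01, FDR 0.198; limma/voom). Between the semaglutide doses 0 of the 10 genes passed by any tool, with 0 at an unadjusted p under 0.05, and limma/voom passed 0 of the 15964 genes (0%).

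Across the doses of BI 456906 in liver, from vehicle to 30 nmol/kg, a linear slope passed for 6 of the 10 genes. It was upward for Hspa5, Hsp90b1, Hyou1, Dnajb9 and Creld2, against 29.3% of all genes, and downward for Pdia6, against 29.6%. Creld2 and Hyou1 had the steepest slopes, with 0.21 ± 0.06 (FDR 0.00239) and 0.20 ± 0.05 (FDR 0.0012; limma/voom) on the log2 scale per 10 nmol/kg. Dnajb9 had 0.13 ± 0.03 (FDR 8.55e-05) and was the only gene that kept its slope when the vehicle mice were left out and the 4 doses alone were fitted. The slope of Pdia6 was lost without any 1 of 8 of the 30 libraries, without the filter on low values and on both log2 TPM scales. Among all 7 groups the median TPM was highest at 20 nmol/kg for 8 of the 10 genes, the exceptions being Dnajb9, highest at 30 nmol/kg, and Pdia6, highest with semaglutide at 20 nmol/kg. Groups next to each other in the order of medians overlapped in each of the 60 pairs.

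The steps between neighbouring doses were compared after the values had been seen. From 10 to 20 nmol/kg the log2 fold change was positive for all 10 genes, with a median of 0.54, and 9 had an unadjusted p under 0.05. The share of all genes at that unadjusted cut-off was not counted. None of the 10 passed in limma/voom, beside 0.0814% of all genes, and none in edgeR. In DESeq2 6 passed, beside 0.381% of all genes that rose in that test. Hspa5 had the lowest FDR, 0.0789, with a log2 fold change of 0.65 (95% confidence interval 0.34 to 0.96). From 20 to 30 nmol/kg the change was negative for 9 of the 10, all but Dnajb9 at 0.03. Pdia4 alone passed, with a log2 fold change of -0.61 ± 0.14 (FDR 0.0155; limma/voom), beside 2.77% of all genes that fell, and lost its call without replicate 61 or 63 of the 20 nmol/kg group.

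In eWAT the transcripts that passed were lower than in vehicle, and these calls were made at 30 nmol/kg. Of the 10 genes, 9 fell against vehicle (13% of the 18536 genes tested fell), and the median log2 fold change was -0.43 over the 10 genes and -0.03 over all genes. With a log2 fold change of at least 1 in size asked for as well, 0 of the 10 were called in limma/voom, against 6.34% of all genes. By FDR alone edgeR passed 8 of the 10 and DESeq2 9, beside 15.1% and 15.99% of all genes that fell, and 9 had an unadjusted p under 0.05. With BI 456906 at 3, 10 and 20 nmol/kg and semaglutide at 20 and 100 nmol/kg, 0 of the 10 passed in limma/voom, edgeR or DESeq2 and 0 had an unadjusted p under 0.05. The shares of all genes that passed in these comparisons were 0.00539%, 0.513%, 4.27%, 6.33% and 14.9%. At 20 nmol/kg of BI 456906 the log2 fold change was negative for all 10, from -0.20 to -0.01. Without vehicle replicates 1 and 3, 0 of the 10 again passed in these 5 comparisons in limma/voom and 0 had an unadjusted p under 0.05, beside 0.0265%, 4.26%, 5.23%, 8.23% and 16.9% of all genes, and at 20 nmol/kg of BI 456906 the change was then negative for 7 of the 10.

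Hspa5 and Creld2 changed most in eWAT. Hspa5 had 490 to 835 TPM in vehicle mice (median 753) and 383 to 520 TPM at 30 nmol/kg (median 425). The groups overlapped through vehicle replicate 6 at 490 TPM and replicates 25 and 29 of the treated group. The log2 fold change was -0.66 ± 0.17 with an FDR of 0.00517 (limma/voom). Creld2 had 43.9 to 93.3 TPM in vehicle (median 79.2) and 36.9 to 53.02 TPM at 30 nmol/kg (median 41.9), a log2 fold change of -0.69 ± 0.20 (FDR 0.0126). In Manf the values were 189 to 325 TPM in vehicle (median 284) and 140 to 216 TPM at 30 nmol/kg (median 166), with a log2 fold change of -0.62 ± 0.18 (FDR 0.01; limma/voom).

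Pdia6 was the gene whose groups separated in eWAT, with 186 to 231 TPM in vehicle (median 215) and 150 to 177 TPM at 30 nmol/kg (median 160). Such a separation held for 1 of the 10 genes, beside 2.90% of all genes. Its log2 fold change was -0.41 ± 0.11 (FDR 0.00527), close to the -0.42 ± 0.11 of Pdia4 (FDR 0.00536; limma/voom), and both isomerases thus fell in eWAT and in liver at this dose. Hsp90b1 fell by 0.39 (FDR 0.0151), Calr by 0.45 (FDR 0.0223), Hyou1 by 0.40 (FDR 0.0361) and Sdf2l1 by 0.57 (FDR 0.0431) on the log2 scale (limma/voom). Hyou1 and Sdf2l1 each missed the threshold when any 1 of 9 of the 12 libraries was left out (all but vehicle replicates 5 and 6 and replicate 29 of the dose group), and Calr without vehicle replicate 4 or replicate 30 of the dose group (FDR up to 0.0641). Hyou1 and Sdf2l1 missed it also with library size alone and, like Calr, without the filter on low values, and Sdf2l1 in edgeR and with only these groups in the fit. The number that fell was thus 7 with library size alone and 6 without the filter. Dnajb9 stood at 38.3 to 54.2 TPM in vehicle and 39.3 to 54.5 TPM at 30 nmol/kg and had a log2 fold change of -0.11 ± 0.08 (FDR 0.327).

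**Figure D3:**
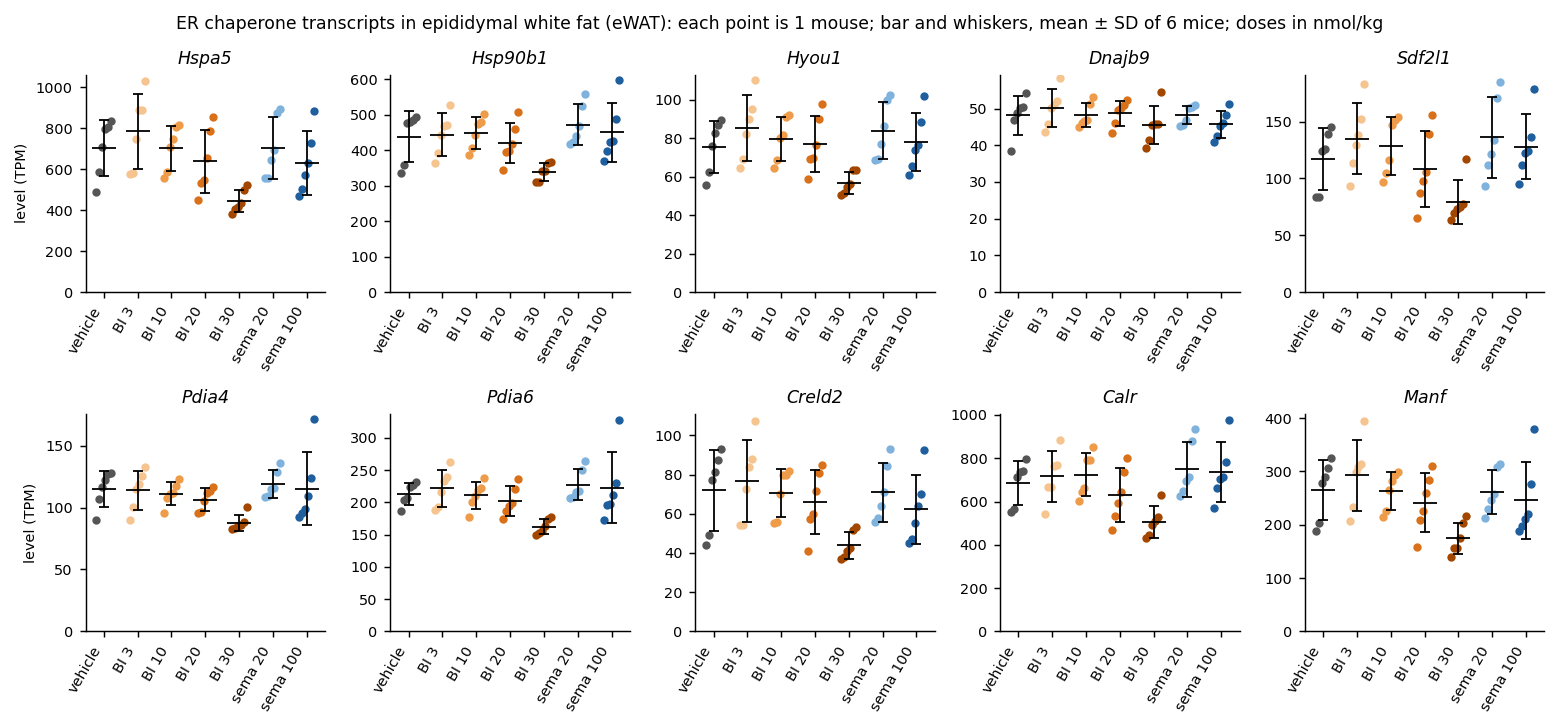
Level of each ER chaperone transcript in eWAT, in TPM on a linear axis from 0, with 1 point per mouse from lowest to highest and the mean ± SD of 6 mice per group; doses are in nmol/kg (BI, BI 456906; sema, semaglutide). The group at BI 456906 30 nmol/kg has the lowest mean of the 7 groups for all 10 genes, and for Pdia6 its 6 mice stand below all 6 vehicle mice.

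The 2 vehicle libraries rich in plasma cell markers bear on the eWAT counts. Without them, a comparison added after the values had been seen, 3 of the 10 genes fell at 30 nmol/kg: Hspa5 with a log2 fold change of -0.59 (FDR 0.0314), Pdia6 with -0.40 (FDR 0.0209) and Pdia4 with -0.34 (FDR 0.0483; limma/voom), beside 10.9% of all genes that fell in this fit. An unadjusted p under 0.05 was found for 8 of the 10, and the median log2 fold change over the 10 genes was -0.40. The other 6 changes that had passed then lay between -0.50 for Manf (FDR 0.0713) and -0.30 for Hsp90b1 (FDR 0.111), and the test rested on 4 vehicle mice. Vehicle replicates 5 and 6, whose plasma cell markers summed to 5.72 and 7.78 TPM, were the lowest 2 vehicle mice for all 10 genes. The plasma cell markers summed to 14.3 to 60.5 TPM at 30 nmol/kg. With all 6 vehicle mice in the fit 1 of the 6 passed, Derl3, which fell and is also a gene of ER-associated degradation. Hepatocyte markers summed to 24.1 to 1062 TPM at this dose. In that fit 2 of the 6 hepatocyte and 2 of the 6 lymphocyte markers fell, and 3 of the 4 mesothelium markers rose. Without vehicle replicates 1 and 3, 5 of the 6 hepatocyte markers fell, no plasma cell or lymphocyte marker passed, and 1 mesothelium marker rose. Hepatocyte markers summed to 22.2 TPM in vehicle replicate 1, the lowest vehicle sum, and to 2375 TPM in replicate 3. The part of these in the chaperone changes was not tested.

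The linear slope over the doses in eWAT draws on 30 libraries, the same vehicle and 30 nmol/kg mice among them. A single library therefore weighs less in it than among the 12 of 1 comparison with vehicle. At 3, 10 and 20 nmol/kg by themselves 0 of the 10 genes had passed. The linear slope was downward and passed for 9 of the 10 genes, against 15.8% of all genes, and for 9 also without vehicle replicates 1 and 3, against 13.8%. On log2(dose + 1) in place of the dose it passed for 7, and not for Sdf2l1 (FDR 0.0656) or Hyou1 (FDR 0.0994; limma/voom). It was -0.23 ± 0.05 per 10 nmol/kg on the log2 scale for Hspa5 (FDR 0.000647), -0.23 ± 0.06 for Creld2 (FDR 0.00331), -0.22 ± 0.05 for Manf (FDR 0.00155) and -0.14 ± 0.03 for Pdia6 (FDR 0.00101; limma/voom). Dnajb9 again differed from the others, with -0.04 ± 0.02 (FDR 0.163).

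Between the highest doses of both compounds in eWAT, BI 456906 at 30 nmol/kg stood below semaglutide at 100 nmol/kg for all 10 genes, but the count that passed depended on the tool. In limma/voom 0 of the 10 passed, 9 had an unadjusted p under 0.05 and their FDR lay between 0.054 and 0.15, beside 0.0108% of all genes that passed. The share of all genes at the unadjusted cut-off was not counted. The quasi-likelihood test of edgeR passed 3 of the 10, beside 1.24% of all genes that were lower, and DESeq2 6, beside 3.27%. Sdf2l1 differed most, with a log2 fold change of -0.72 (95% confidence interval -1.15 to -0.30, FDR 0.0678), followed by Calr with -0.57 (-0.86 to -0.28, FDR 0.0543) and Hspa5 with -0.50 (-0.85 to -0.16, FDR 0.0973; limma/voom). Without replicate 29 of the BI 456906 group, the highest mouse of that group for 7 of the 10 genes, 8 passed, beside 4.76% of all genes that were lower. Without semaglutide replicate 39 it was 6 (2.64% of all genes) and without replicate 38 it was 2 (0.973%). At the shared dose of 20 nmol/kg and between the semaglutide doses, 0 of the 10 passed by any of the 3 tools and 0 had an unadjusted p under 0.05, with 0 of all genes past the threshold in limma/voom (0%) in both comparisons.

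**Figure D4:**
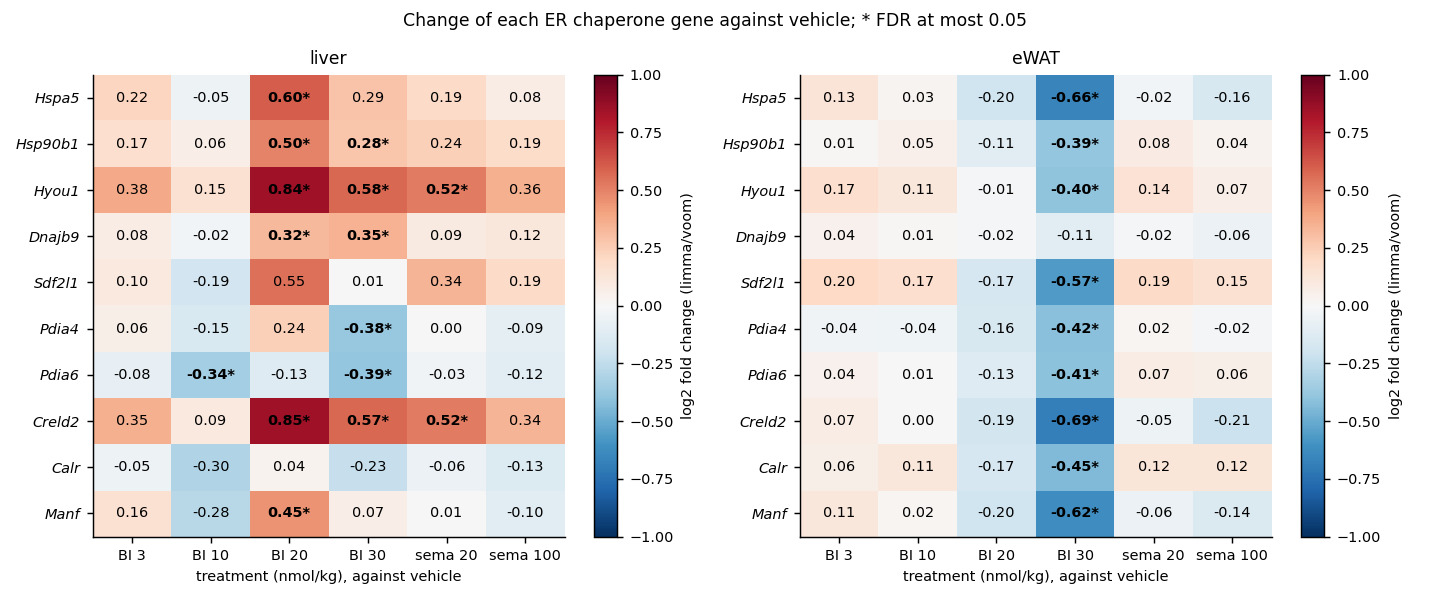
Log2 fold change against vehicle (limma/voom) of each ER chaperone gene in liver and eWAT, by treatment and dose in nmol/kg. Red is higher and blue lower than vehicle, and bold values with an asterisk have an FDR of at most 0.05; in liver these stand mostly under BI 456906 20 and 30 nmol/kg, and in eWAT under 30 nmol/kg.

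The labels tie no liver to the fat of the same mouse, so a fit that treated all 84 libraries as independent was used. The difference between tissues was tested directly in this fit, as the change in liver minus the change in eWAT, over 15297 genes. With BI 456906 at 30 nmol/kg it was positive and passed for 5 of the 10 genes, beside 20.6% of all genes. The log2 difference was 1.15 ± 0.29 for Creld2 (FDR 0.0007), 0.87 ± 0.23 for Hyou1 (FDR 0.00136), 0.84 ± 0.23 for Hspa5 (FDR 0.00173), 0.56 ± 0.16 for Hsp90b1 (FDR 0.00253) and 0.35 ± 0.12 for Dnajb9 (FDR 0.0123; limma/voom). Manf, with 0.58 ± 0.25, had an FDR of 0.0528. Pdia4, Pdia6 and Calr, whose changes had the same sign in both tissues, had differences of -0.07 (95% confidence interval -0.43 to 0.29), -0.08 (-0.43 to 0.27) and 0.11 (-0.27 to 0.49). Without eWAT vehicle replicates 1 and 3 the number of genes that passed was again 5, beside 25.7% of all genes. With semaglutide at 100 nmol/kg 0 of the 10 differed between tissues and 0 had an unadjusted p under 0.05 (limma/voom, the tool run for this test), while 33.9% of all genes did, and without eWAT vehicle replicates 1 and 3 these numbers were 0, 0 and 32.9%. Creld2 had the largest difference there, 0.50 (-0.07 to 1.07).

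**Figure D5:**
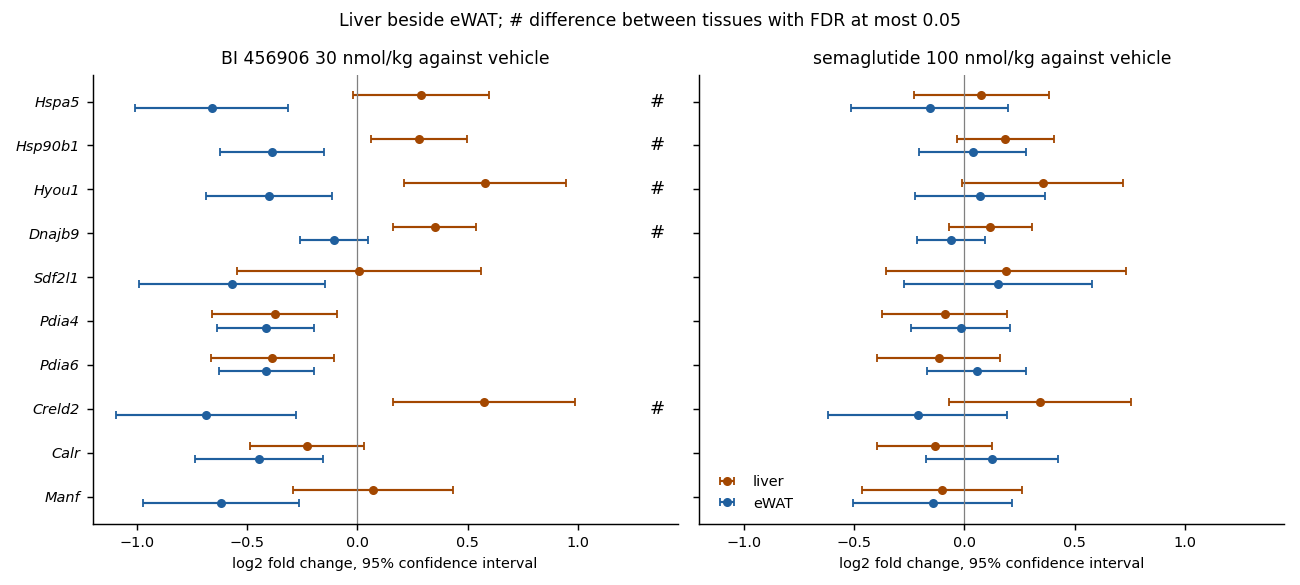
Log2 fold change against vehicle with its 95% confidence interval in liver (brown) and eWAT (blue), each from the fit of that tissue (limma/voom, 6 mice per group). A hash marks the 5 genes whose difference between tissues had an FDR of at most 0.05 in the fit of all 84 libraries, all of them with BI 456906 30 nmol/kg.

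Other genes of the pathway were taken from lists, which were also chosen with earlier results of these data known. Genes named from a list are among the 3 with the largest change, and not all of these 3 are named. In liver at 30 nmol/kg, 4 of the 10 sensors and regulators of the unfolded protein response rose and none fell (limma/voom, which also set the other counts of this paragraph). Of all genes tested 28.9% rose and 29.9% fell in this comparison, which is the background for this count and the others in liver at this dose. Atf6 rose by a log2 fold change of 0.95 ± 0.10 (FDR 8.61e-10), from 12.1 ± 1.66 to 24.6 ± 1.499 TPM. Mbtps2, the protease that cuts ATF6 in the Golgi, rose by 0.59 ± 0.09 (FDR 1.21e-06) and Ern1 by 0.45 ± 0.15 (FDR 0.00821). Among the 10 sensors and regulators 3 rose and none fell with semaglutide at 100 nmol/kg, beside 24% of all genes that rose. Atf6 rose there by 0.68 (FDR 1.35e-06), Mbtps2 by 0.43 (FDR 0.000265) and Ern1 by 0.62 (FDR 0.000674; limma/voom). Of the 10 genes of the PERK and ATF4 branch, which adjusts translation and amino acid supply, 6 rose and 1 fell in liver at 30 nmol/kg. Asns, the asparagine synthetase, had the largest rise, 2.88 ± 0.75 (FDR 0.00125), from the low level of 0.372 ± 0.328 TPM to 3.19 ± 1.92 TPM, and Trib3, an inhibitor of AKT and a target of ATF4, fell by 1.28 (FDR 2.25e-09). In this branch 3 of the 10 rose and 3 fell with semaglutide at 100 nmol/kg. Asns did not pass there (0.40, FDR 0.745), and Trib3 had a log2 fold change of -0.54 (FDR 0.00078; limma/voom). Xbp1, looked up after the values had been seen, had 0.02 ± 0.09 (FDR 0.858) in liver; its splicing is not measured by these tables.

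Of 20 other ER folding factors, 8 rose and 5 fell in liver at 30 nmol/kg. Ero1l, the oxidase that recharges the disulfide isomerases, rose by 0.81 ± 0.10 (FDR 4.64e-09), Dnajc3, a co-chaperone of BiP that also inhibits PERK, by 0.77 ± 0.11 (FDR 2.81e-07), and Hspa13 by 0.73 ± 0.10 (FDR 1.39e-07; limma/voom). With semaglutide at 100 nmol/kg, 6 of the 20 rose and 3 fell. Ero1l rose there by 0.62 (FDR 2.25e-06), Dnajc3 by 0.65 (FDR 9.73e-06) and Hspa13 by 0.58 (FDR 1.91e-05; limma/voom). In ER-associated degradation, 8 of 15 genes rose and 4 fell. Edem3, which trims mannose from misfolded glycoproteins, rose by 1.14 ± 0.13 and Herpud1, a part of the ubiquitin ligase complex, by 0.89 ± 0.14, from 230 ± 38.9 to 437 ± 40.7 TPM, while Derl3, close to 1 TPM in vehicle, fell by 1.84 on the log2 scale. Of these 15 genes 7 rose and 1 fell with semaglutide at 100 nmol/kg. Edem3 rose there by 0.96 (FDR 1.54e-07) and Herpud1 by 0.78 (FDR 1.36e-05), while Derl3 did not pass (FDR 0.328; limma/voom). The genes of protein entry into the ER (7 of 16 tested rose, 5 fell), of N-glycosylation (2 of 10 rose, 2 fell) and of ER to Golgi transport (3 of 10 rose, 3 fell) moved both ways. Of the 14 cytosolic and mitochondrial chaperones 2 rose and 6 fell, among them Hspb1 by 1.40, Hspa1a by 1.302 and Hspa1b by 1.20 on the log2 scale. With semaglutide at 100 nmol/kg, 1 of the 14 rose and 6 fell. Hspa1a and Hspa1b are near-identical copies, so reads between them can be exchanged.

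In eWAT at 30 nmol/kg the folding factors that passed were lower and the genes of the PERK and ATF4 branch that passed were higher, beside 13% of all genes that fell and 10.9% that rose. Of the 20 other ER folding factors 6 fell and none rose, with Dnajb11, a BiP co-chaperone that works with Sdf2l1, lower by 0.40 (FDR 0.0258) and Pdia3, the isomerase that pairs with Calr, by 0.37 (FDR 0.0436) on the log2 scale. In ER-associated degradation 4 of 15 fell and none rose, among them Edem1 by 0.52 (FDR 0.000318) and Sel1l by 0.40 (FDR 0.000549). The largest change of this list was that of Derl3, with a log2 fold change of -1.39 (FDR 0.0226; limma/voom). The KDEL receptor and ER to Golgi list had 5 of 10 lower, Sec23a by 0.45 (FDR 4.01e-05), and 1 higher. Of the cytosolic and mitochondrial chaperones 5 of 14 fell, among them Hsph1 by 0.53 (FDR 0.0106) and Hspa8 by 0.43 (FDR 0.00712). Of the sensors and regulators 3 of 10 fell, the largest change being that of Creb3l3, -2.12 ± 0.59, a gene of liver and gut that stood at 7.65 ± 6.11 TPM in vehicle eWAT, whose hepatocyte marker sums also ranged widely. The PERK and ATF4 branch had 5 of 10 higher and none lower, with Asns at 27.2 ± 6.10 TPM in vehicle and 64.7 ± 11.9 TPM at 30 nmol/kg (log2 fold change 1.18 ± 0.20, FDR 8.3e-05), and Chac1, a glutathione-degrading target of ATF4, at 1.10 ± 0.29 (FDR 0.00577; limma/voom).

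Most of these eWAT counts were smaller without vehicle replicates 1 and 3, in a fit that rested on 4 vehicle mice. In this fit 10.9% of all genes fell and 6.76% rose. Then 1 of the 20 other ER folding factors fell, Dnajc3, with a log2 fold change of -0.24 (FDR 0.0209), while Dnajb11 (-0.35, FDR 0.103) and Pdia3 (-0.29, FDR 0.192; limma/voom) did not pass. In ER-associated degradation 2 of 15 fell, Edem1 with -0.46 (FDR 0.00399) and Sel1l with -0.42 (FDR 0.00139), while Derl3 (-0.59, FDR 0.326; limma/voom) did not pass. The KDEL receptor and ER to Golgi list had 4 of 10 lower and none higher, with Sec23a at -0.51 (FDR 5.62e-05). Of the cytosolic and mitochondrial chaperones 2 of 14 fell, and Hsph1 (-0.46, FDR 0.056) and Hspa8 (-0.30, FDR 0.0875; limma/voom) did not pass. Of the sensors and regulators 2 of 10 fell, Creb3l3 among them, and of the PERK and ATF4 branch 2 of 10 rose, Asns by 1.11 (FDR 0.000904) and Chac1 by 1.01 (FDR 0.0306; limma/voom). With and without replicates 1 and 3, the median log2 fold change was -0.144 and -0.148 over the other ER folding factors. It was -0.110 and -0.113 over ER-associated degradation and -0.218 and -0.209 over the KDEL receptor and ER to Golgi list. Over the cytosolic and mitochondrial chaperones it was -0.136 and -0.113. It was -0.125 and -0.0966 over the sensors and regulators and 0.213 and 0.162 over the PERK and ATF4 branch.

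The 10 genes varied together from mouse to mouse. The correlation of each gene with the mean of the other 9, on standardised log2 values over the 42 libraries of a tissue, was between 0.62 (Pdia6) and 0.95 (Hspa5) in liver apart from Dnajb9 at 0.46, and between 0.91 (Pdia4) and 0.98 (Hsp90b1) in eWAT apart from Dnajb9 at 0.63. These libraries include the treated groups, so the values hold group differences as well as differences between mice and are given as a description. Single mice set the extremes for most genes at once: liver vehicle replicate 48 was the lowest of its group for all 10, liver replicate 53 (BI 456906 3 nmol/kg) the highest for 9, and eWAT replicate 11 (3 nmol/kg) the highest for all 10. Among all genes tested, the 5 whose pattern was most like the mean of the 10 in liver were Syvn1 (0.89), the ubiquitin ligase of ER-associated degradation, Dnajb11 (0.88), Slc17a9 (0.85), a vesicular nucleotide transporter, Rpn1 (0.82), a subunit of the oligosaccharide transferase, and Pdia3 (0.82). In eWAT they were P4ha1 (0.93), a prolyl hydroxylase of collagen, Magt1 (0.93), also a subunit of that transferase, Atp2a2 (0.93), the calcium pump of the ER, Pdia3 (0.92) and Papola (0.92), a poly(A) polymerase.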

How the data were processed

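RNA was sequenced from liver and eWAT of 7 groups (6 libraries per group and tissue, 84 in all). The 10 genes and the gene lists were chosen with earlier results of these data known. The authors deposited, per tissue, a table of gene signal values and a table of TPM. Per the labels' processing notes, STAR 2.5.2b, RSEM 1.3.0, featureCounts 1.5.1 and FastQC 0.11.5 were used with the mm10/GRCm38 genome and GENCODE gene models. The labels and the study's methods give different library kits and read layouts, so whether counting used strand was not settled. In the deposited signal table each value is a whole read count multiplied by 1 constant per library (0.827 to 1.99 in liver, 0.868 to 1.24 in eWAT), and 100% of the values came out whole within a tolerance of 0.001. The whole reads per library, 21676902 to 53869104 in liver and 37573004 to 53996914 in eWAT, were recovered from these steps. TPM was computed by the authors and is used here for levels.

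The deposited signal values were tested with limma 3.58.1 (voom, pseudocount 0.5) in R 4.3.3 after TMM scaling and the filterByExpr filter of edgeR 4.0.16, with 1 fit of all 7 groups per tissue, as the study's methods name limma/voom. Since the files held scaled values where counts had been assumed, edgeR and DESeq2 1.42.0 were run on the recovered reads as alternatives. P-values were adjusted by Benjamini-Hochberg over all genes tested. A gene passed at an FDR of at most 0.05, and was called with a log2 fold change of at least 1 in size besides. SE is the standard error of limma. Edges of promoters, motif matches and tables were computed in Python 3.11.15. The fits were tested on simulated data. Genes named from a list are among the 3 with the largest change of those that passed at BI 456906 30 nmol/kg in that tissue. Not all of these 3 are named for each list. The nearest genes are the 5 with the highest correlation. Replicates are mice by the labels, all run on 1 flow cell, and no batch is labelled. The comparisons of neighbouring doses and the fits without eWAT vehicle replicates 1 and 3 were added after the values had been seen.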

Additional observations from a re-analysis of the deposited data

Results flagged for a closer look

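Of 140 sets of 6 mice (10 genes, 7 groups and 2 tissues), 4 held a mouse that stood apart from the other 5 by Dixon's criterion at the 95% level, which chance alone gives in about 1 of 20 sets. Pdia4 stood at 121.81 TPM in liver replicate 80 (semaglutide 100 nmol/kg), where the other mice had 77.3 to 93.1 TPM. In eWAT, Sdf2l1 stood at 117.3 TPM in replicate 29 (BI 456906 30 nmol/kg), where the others had 63.3 to 77.2 TPM, and Pdia4 at 100.84 TPM in replicate 25 of the same group, where the others had 82.4 to 88.1 TPM. Pdia6 stood at 328.14 TPM in eWAT replicate 40 (semaglutide 100 nmol/kg), where the others had 172 to 230.3 TPM.

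The change with BI 456906 at 30 nmol/kg differed between liver and eWAT for 5 genes by the test of the difference itself (limma/voom, liver minus eWAT, log2). The differences were 1.15 for Creld2 (FDR 0.0007), 0.87 for Hyou1 (FDR 0.00136), 0.84 for Hspa5 (FDR 0.00173), 0.56 for Hsp90b1 (FDR 0.00253) and 0.35 for Dnajb9 (FDR 0.0123).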

How the results depend on the processing

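No paired analysis was run because the labels tie no liver to an eWAT sample. The SE and FDR of the difference between tissues therefore assume independent libraries.

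Numbers here count which of the 10 chaperone genes had an FDR of at most 0.05. Percentages in brackets are shares of all genes in the same fit. Where none is given, a shift of the 10 genes cannot be told from a shift of all genes. In liver at BI 456906 10 nmol/kg (1, 37.5%) the number was 0 with RLE factors (37.1%) and without the filter (17.5%). It was also 0 with limma on log2(TPM + 1) or log2(TPM + 0.1). The number was 2 with sample quality weights (45.6%) and with only the groups compared in the fit, and 0 to 1 when 1 library was left out. With semaglutide 20 nmol/kg (2, 46.5%) it was 1 without the filter (22.6%). With 1 library left out it was 0 to 3, with 0 without vehicle replicate 48 or semaglutide replicate 74 and 1 without vehicle replicate 46 or semaglutide replicate 73. With semaglutide 100 nmol/kg (0) it was 1 on both log2 TPM scales and 0 to 2 with 1 library left out, 2 without replicate 84. BI 456906 30 nmol/kg against semaglutide 100 nmol/kg (0) gave 1 with sample quality weights and 0 to 1 with 1 library left out, 1 without semaglutide replicate 83. BI 456906 20 nmol/kg against semaglutide 20 nmol/kg (0) gave 1 with sample quality weights. BI 456906 20 against 10 nmol/kg (0) gave 6 in DESeq2 (0.743% of all genes passed), and 30 against 20 nmol/kg (1) gave 0 to 1 with 1 library left out, 0 without replicate 61 or 63. The liver slope (6) gave 1 over the 4 doses without vehicle, a fit of fewer samples.

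In eWAT, BI 456906 30 nmol/kg against vehicle (9) gave 3 without vehicle replicates 1 and 3, 7 with library size alone, 6 without the filter, 8 in edgeR and with only the groups compared, and 6 to 9 with 1 library left out. Its slope (9) gave 7 on log2(dose + 1). BI 456906 30 nmol/kg against semaglutide 100 nmol/kg (0) gave 2 with library size alone (0.906% of all genes passed), 4 with at least 10 in every library (1.94%), 9 with sample quality weights (36.5%), 3 in edgeR (1.63%), 6 in DESeq2 (5.22%) and 0 to 8 with 1 library left out, 8 without BI 456906 replicate 29 (9.55%). The causes of these shifts were not tested. With 1 library left out, the other numbers were 5 to 7 (liver 20 nmol/kg, 5 also without the filter and with sample quality weights, where Manf was lost), 5 to 6 (liver 30 nmol/kg), 5 to 7 (liver slope), 9 (eWAT slope) and 5 to 6 (tissue difference). No direction of a change that had passed was reversed by a setting listed here.

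Hspa5, Hsp90b1, Hyou1, Dnajb9 and Creld2 at 20 nmol/kg in liver passed in all 10 other settings and without each of the 12 libraries in turn. Scaling moved the split of all genes that passed: 4612 higher and 4772 lower in liver at 30 nmol/kg became 4018 and 5410 with library size alone, 2014 and 2418 in eWAT became 2810 and 1807, and 3669 and 3657 in liver at 20 nmol/kg became 4273 and 2210 on log2(TPM + 1).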

Other observations

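In liver 3 adipocyte markers could be tested. All 3 fell with BI 456906 at 10, 20 and 30 nmol/kg and at both semaglutide doses, beside 18.1% to 29.9% of all genes. At 3 nmol/kg 1 of the 3 fell, beside 4.93% of all genes. Cfd stood at 11.5 ± 4.40 TPM (SD, n = 6) in vehicle and 0.00667 ± 0.0163 TPM at 30 nmol/kg. Cidec, a lipid droplet protein that fatty liver also expresses, stood at 114 ± 59.6 TPM in vehicle and 45.8 ± 31.2 TPM at 30 nmol/kg (log2 fold change -1.52 ± 0.49, FDR 0.00717, limma/voom). With semaglutide at 100 nmol/kg the means were 1.28 TPM for Cfd (log2 fold change -4.92, FDR 7.62e-08) and 45.9 TPM for Cidec (-1.57, FDR 0.00763; limma/voom).

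Of the 37 promoters with the ER stress response element, those outside the 10 genes included Canx, Dnajc3, Syvn1, Derl3 and Ero1b, named here after the matches were seen and because they too encode ER folding or degradation factors. Herpud1 was among the 10 promoters with the related element ATTGGNCCACG.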
